A study of Mus musculus with 6 samples.

Results

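The genes described are 10 members of the JAK-STAT pathway: the kinases JAK1, JAK2 and TYK2, the transcription factors STAT3, STAT5A, STAT5B and STAT6, and the inhibitors SOCS1, SOCS2 and SOCS3. They were taken by symbol from the deposited table of read counts, and all 10 had a row among the 20499 genes of the table. The study asked what loss of the ubiquitin ligase RNF11 does to liver cells that have gone through hypoxia and then reoxygenation, which models ischemia and reperfusion of the liver in culture. RNA was sequenced from 3 libraries of cells in which RNF11 had been knocked down by lentiviral transduction (shRNF11) and from 3 libraries of wild-type cells given the control construct (shControl). Cells of all 6 libraries had spent 6 h at 1% oxygen without glucose or serum and were then returned to normal air in complete medium, which held 10% serum, insulin-transferrin-selenium and 40 ng/mL dexamethasone, a synthetic glucocorticoid. No library without hypoxia was analysed here. The labels name the cells AML12, an immortalized mouse hepatocyte line, and give neither the number of hairpins or clones nor the time of harvest. They also do not say that the 3 libraries of a group came from separate cultures, so the p-values cover only how these libraries differ among themselves, and that spread may be technical.

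Receptors of many cytokines have no kinase activity of their own. On binding of the ligand, the JAK kinases held at their inner tails phosphorylate the receptor and the STAT proteins that dock there, and the STATs then pair, enter the nucleus and switch on target genes. SOCS genes are among those targets, and their proteins block the kinases or mark the complex for ubiquitination, which closes a negative feedback loop. In liver, interleukin 6 acts through the shared receptor gp130 and STAT3 on acute-phase genes, growth hormone acts through STAT5B on growth factor genes, and interleukins 4 and 13 act through STAT6.

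Several facts of the whole data set touch every value below. The symbols of the table are human, whereas the organism in the labels is mouse, and 0 of its Entrez numbers, those of the 10 members included, were found in the mouse RefSeq table. Its KEGG pathway terms were human for 6391 genes and mouse for 0. The table and the labels thus disagree on the species, and which cells were sequenced was not tested. Hepatocyte identity was not seen in the markers, since 4 of 9 hepatocyte markers, ALB among them, had no row in the table and the other 5 summed to between 0 and 0.211 CPM in shRNF11 and between 0.235 and 0.362 CPM in shControl libraries. CPM counts reads per 1000000 after the library total has been scaled by its TMM factor. It is not adjusted for gene length, so levels are compared between groups and not between genes. Markers of immune cells summed to 43.5 to 47.5 CPM in shRNF11 and 49.1 to 53.7 CPM in shControl libraries, nearly all from CD68, and PTPRC, LYZ and CD3E had no row. Endothelial markers summed to 2.43 to 3.76 CPM in shRNF11 against 2.87 to 3.44 CPM in shControl, and stellate and fibroblast markers to 67.5 to 89.3 CPM in shRNF11 against 73.7 to 93.4 CPM in shControl. Of the tested markers, 1 of 3 immune genes was lower, 0 of 2 endothelial genes passed, and 1 of 6 stellate and fibroblast genes was higher and 1 lower. The part of other cell types in the results was not tested, and in such bulk RNA fewer cells of a type and less RNA per cell cannot be told apart. Library totals ran from 37485850 to 39045440 reads. RNF11 itself (Entrez 26994) had 573, 565 and 599 reads in shRNF11 libraries against 2050, 1926 and 1930 in shControl libraries, so the labels matched the targeted transcript.

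Among the members, the feedback inhibitor SOCS3 fell, the transcription factor STAT6 rose and STAT5B fell by a small amount in shRNF11 cells. The 3 kinases, STAT3, STAT5A and SOCS2 did not pass the test, and SOCS1 had too few reads to be tested. Thus 1 of 9 tested members was higher and 2 were lower at an adjusted p under 0.05. Of all 13489 tested genes 32.1% passed that threshold, 17.4% higher and 14.7% lower, so 3 of 9 members, or 33.3%, is a share near that of genes in general. The median log2 fold change was -0.08 over the 9 tested members and -0.0079 over all tested genes. The libraries of the 2 groups did not overlap for 3 of the 9, against 42.8% of all tested genes. With library totals alone as the scale, log2 fold changes shifted by a median of -0.06 and 5 members passed, because STAT3 and TYK2 then also fell; across all genes 29.1% of the calls were higher in that setting and 54.2% with TMM factors.

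**Figure D1:**
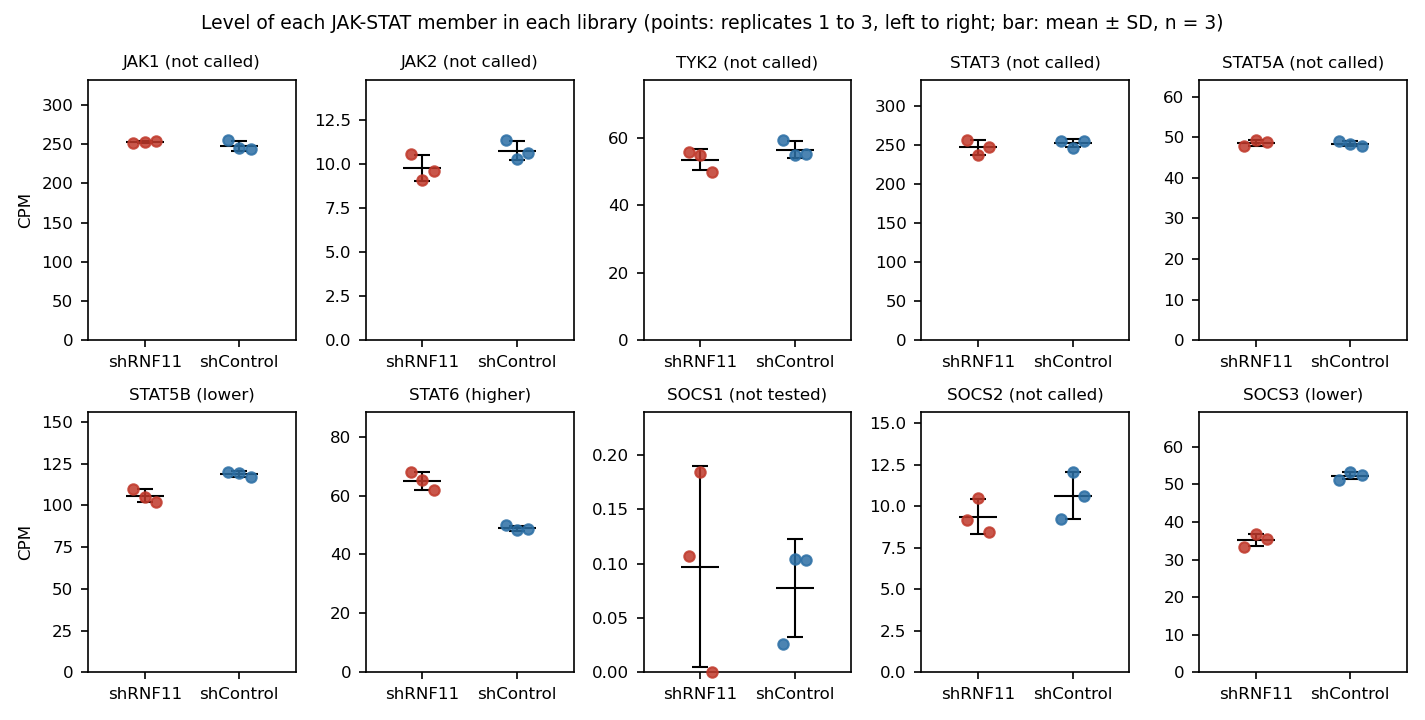
Level of each of the 10 members in CPM (vertical axes from 0) in the 3 shRNF11 libraries (left, red) and the 3 shControl libraries (right, blue), with the mean ± SD of each group and the outcome of the test in the panel title. STAT6 stands higher and SOCS3 and STAT5B lower in every shRNF11 library, and the groups overlap in the other panels.

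SOCS3 (Entrez 9021) encodes the inhibitor that binds gp130 and the kinases next to it and limits STAT3 signalling. The shRNF11 libraries held 1247, 1400 and 1346 reads of it, against 1985, 2041 and 2036 reads in the shControl libraries. On the CPM scale these were 33.5, 36.8 and 35.5 in shRNF11 and 51.3, 53.2 and 52.6 in shControl. Every shRNF11 library was below every shControl library, and the gap between the groups was wider than the range within either. The mean was 35.3 ± 1.69 CPM in shRNF11 and 52.4 ± 1.00 CPM in shControl (SD, n = 3 each), a 1.48-fold lower level (log2 fold change -0.57, SE 0.0541, edgeR adjusted p = 2.72e-12, from its quasi-likelihood test with the Benjamini-Hochberg method over all tested genes). Of all tested genes, 8.80% had a larger change in either direction.

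The kinase substrate that went the other way was STAT6 (Entrez 6778), the factor of interleukin 4 and interleukin 13 signalling. It had 2530, 2482 and 2343 reads in shRNF11 libraries against 1932, 1853 and 1884 in shControl libraries. The corresponding levels were 67.9, 65.2 and 61.8 CPM in shRNF11 and 49.9, 48.3 and 48.7 CPM in shControl. No shRNF11 library came as low as the highest shControl library, and the shRNF11 libraries were spread more widely, with a coefficient of variation of 4.69% against 1.69% in shControl. STAT6 averaged 65.0 ± 3.05 CPM in shRNF11 and 49.0 ± 0.826 CPM in shControl cells (SD, n = 3 each), which was 1.33-fold higher (log2 fold change 0.41, SE 0.0489, edgeR adjusted p = 2.18e-09), and 14.9% of all tested genes had a larger change.

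STAT5B (Entrez 6777), which carries the growth hormone signal in liver, was lower by less. Its levels were 110.1, 105.3 and 102.3 CPM in shRNF11 libraries and 119.9, 119.6 and 117.1 CPM in shControl libraries. The groups did not overlap, and shRNF11 replicate 1 came nearest to the shControl range. The means of 106 ± 3.96 CPM in shRNF11 and 119 ± 1.53 CPM in shControl (SD, n = 3 each) differed 1.12-fold (log2 fold change -0.17, SE 0.0379, edgeR adjusted p = 0.000478). A change of that size was common, since 43.7% of tested genes had a larger one.

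STAT5A (Entrez 6776) is the near-identical neighbour in sequence and function of STAT5B, and reads of the 2 genes may have been split between them in counting. It was at 47.8, 49.3 and 48.8 CPM in shRNF11 and 49.0, 48.2 and 48.0 CPM in shControl libraries. These values overlap, and the log2 fold change was 0.01 with an approximate 95% interval (log2 fold change and SE, normal quantiles) of -0.09 to 0.11 (edgeR adjusted p = 0.943). With the reads of both genes added before the fit, the pair had a log2 fold change of -0.11 (edgeR adjusted p = 0.00639). The negative direction of that sum comes with the larger count of STAT5B, 11986 reads in shRNF11 and 13757 in shControl, against 5506 reads in shRNF11 and 5606 in shControl for STAT5A.

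STAT3 (Entrez 6774), the factor of interleukin 6 and its relatives, was measured with high precision and did not pass. Its levels were 257, 238 and 248 CPM in shRNF11 libraries and 256, 247 and 256 CPM in shControl libraries. The shRNF11 libraries span the whole shControl range, with replicate 1 above it and replicate 2 below it. The log2 fold change was -0.03 with an interval of -0.09 to 0.03 (edgeR adjusted p = 0.492), so at this depth the interval leaves room for a fall of less than 0.1 on the log2 scale. With library totals alone STAT3 was called lower at a log2 fold change of -0.09 (edgeR adjusted p = 0.0151).

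The 3 kinases showed no difference that passed the test. JAK1 (Entrez 3716), which serves gp130 and interferon receptors, had 252, 252 and 254 CPM in shRNF11 libraries against 255, 246 and 243 CPM in shControl libraries. Its coefficient of variation was 0.477% in shRNF11 and 2.54% in shControl, and the log2 fold change of 0.03 had an interval of -0.03 to 0.08 (edgeR adjusted p = 0.542); its sign turned negative, uncalled, with library totals alone. JAK1 and STAT3 thus had the narrowest intervals among the members. TYK2 (Entrez 7297), a kinase of interferon and interleukin 12 receptors, had 2075, 2085 and 1895 reads in shRNF11 and 2297, 2103 and 2131 in shControl libraries. On the CPM scale the groups overlapped, with shRNF11 replicate 3 the lowest library, and the log2 fold change of -0.08 did not pass (edgeR adjusted p = 0.265), although it did with library totals alone (log2 fold change -0.14, edgeR adjusted p = 0.0275). JAK2 (Entrez 3717), the kinase of growth hormone and erythropoietin receptors, had 394, 347 and 365 reads in shRNF11 libraries against 440, 395 and 412 in shControl libraries. With so few reads its interval was wide, from -0.35 to 0.07 around a log2 fold change of -0.14 (edgeR adjusted p = 0.349), and the CPM values of the groups overlapped.

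Of the other feedback inhibitors, SOCS2 (Entrez 8835), which restrains growth hormone signalling, had 343, 399 and 320 reads in shRNF11 libraries and 358, 462 and 412 reads in shControl libraries. It varied most among the tested members, at 9.38 ± 1.04 CPM in shRNF11 and 10.6 ± 1.40 CPM in shControl (SD, n = 3 each), and shControl replicate 1 lay within the shRNF11 range. The log2 fold change of -0.18 had an interval of -0.41 to 0.04 (edgeR adjusted p = 0.235), which holds both 0 and a fall as large as that of STAT5B. SOCS1 (Entrez 8651), an inhibitor of JAK1 and JAK2 that interferons induce, had 4, 7 and 0 reads in shRNF11 libraries and 1, 4 and 4 in shControl libraries. These 11 and 9 reads per group were under the filter, and no fold change is given.

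**Figure D2:**
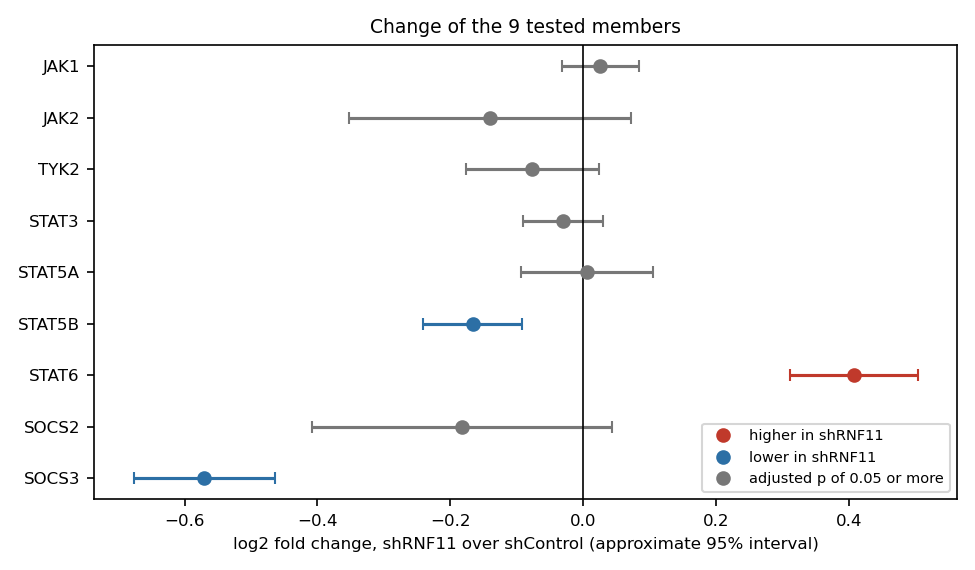
Log2 fold change of shRNF11 over shControl (horizontal axis) for the 9 tested members, with bars for the approximate 95% interval; red marks members higher and blue members lower at an adjusted p under 0.05. STAT6 lies at 0.41, STAT5B at -0.17 and SOCS3 at -0.57, while the bars of the other 6 members cross 0.

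Ratios within a library do not depend on the scaling between libraries, and 6 were computed after the values had been seen. The ratio of SOCS3 to STAT3 reads was 0.143 ± 0.0122 in shRNF11 and 0.207 ± 0.00789 in shControl libraries (SD, n = 3 each). STAT6 over STAT3 was 0.263 ± 0.0126 in shRNF11 and 0.194 ± 0.00309 in shControl, and STAT5B over STAT5A was 2.18 ± 0.112 in shRNF11 and 2.45 ± 0.0206 in shControl. In each of these 3 ratios, and in STAT6 over SOCS3 (1.85 ± 0.158 in shRNF11 and 0.936 ± 0.0339 in shControl), the libraries of the groups did not overlap. Each gave p = 0.10 in a 2-sided exact permutation test, the smallest that 3 against 3 libraries allow, and 0.15 after Benjamini-Hochberg adjustment over the 6 ratios. Each of these ratios holds a member already called, so its p-value is no separate evidence. SOCS2 and CISH over the sum of STAT5A and STAT5B gave exact permutation p-values of 0.80 and 0.30.

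Abundant genes passed more often than scarce ones, so the members are set beside genes of like level. In the top quintile of abundance, where JAK1, STAT3 and STAT5B lie, 55.7% passed and the median log2 fold change was 0.06. In the next quintile, which holds STAT6, SOCS3, TYK2 and STAT5A, 38.8% passed and the median was 0.0060. JAK2 and SOCS2 belong to a low quintile, where 24.8% passed and the median was -0.09. Thus the changes of SOCS3 and STAT6 stood well away from the median of genes of like level, and those of JAK2 and SOCS2 lay nearer to it.

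**Figure D3:**
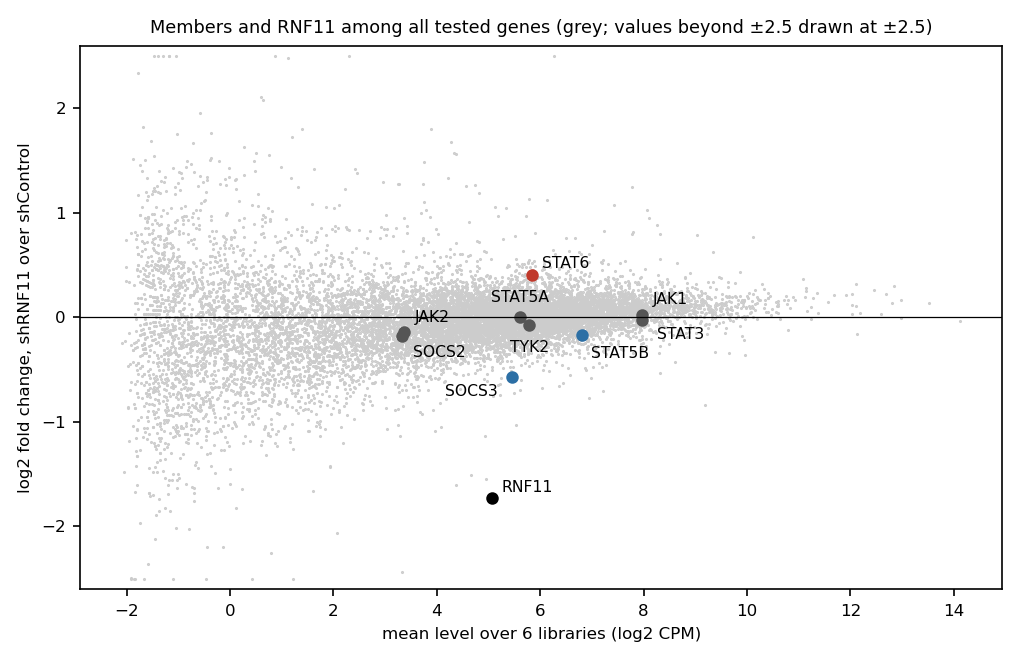
Mean level over the 6 libraries in log2 CPM (horizontal axis) against log2 fold change of shRNF11 over shControl (vertical axis) for all 13489 tested genes (grey), the 9 tested members (red higher, blue lower, dark grey not called) and RNF11 (black). SOCS3 and STAT6 lie in the outer part of the genes of like abundance, and RNF11 lies far below them at -1.73.

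Outside the members, the other core genes of the pathway were called at a share near that of all tested genes, 34.8% against 32.1%. Of 25 such genes, 23 were tested, of which 5 were higher, 3 lower and 15 did not pass, with a median log2 fold change of 0.0042. The interferon factor STAT2 did not pass, at 18.1 ± 0.290 CPM in shRNF11 against 17.8 ± 0.504 CPM in shControl. PTPN11, the phosphatase that SOCS3 competes with at gp130, was 1.08-fold higher (log2 fold change 0.11, SE 0.0301, edgeR adjusted p = 0.00272), a call lost with library totals alone (edgeR adjusted p = 0.218). PIAS1, an inhibitor of STAT binding to DNA, was 1.16-fold lower (edgeR adjusted p = 0.00827), and the ubiquitin ligase gene CBL was 1.10-fold higher (edgeR adjusted p = 0.0283). Leaving out single libraries ended the call on PIAS1 in 3 cases (edgeR adjusted p of 0.0513 without shRNF11 replicate 3, 0.0640 without shRNF11 replicate 2 and 0.0640 without shControl replicate 1). For CBL the call ended with library totals alone (log2 fold change 0.07 in place of 0.13, edgeR adjusted p = 0.287) and in 3 cases of a left-out library (0.238 without shRNF11 replicate 1, at a log2 fold change of 0.08, then 0.161 without shControl replicate 2 and 0.0635 without shControl replicate 3).

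CISH, the SOCS family gene that STAT5 induces, had 142, 173 and 130 reads in shRNF11 libraries and 279, 171 and 182 in shControl libraries. The groups overlapped, and shControl replicate 1 stood above the other libraries. CISH was called lower (log2 fold change -0.47, SE 0.173, edgeR adjusted p = 0.0308), but without shControl replicate 1 the log2 fold change was -0.22 (edgeR adjusted p = 0.430), and the call was also lost without shRNF11 replicate 1 (0.0739), without shRNF11 replicate 3 (0.116) in DESeq2 (adjusted p = 0.0583) and in limma-voom (adjusted p = 0.0611). The remaining family members SOCS4, SOCS5, SOCS6 and SOCS7, named after their values were seen, did not pass, with edgeR adjusted p-values of 0.897, 0.497, 0.0693 and 0.964. SOCS6 alone among these 4 had no overlap between groups, at 50.9 to 55.5 CPM in shRNF11 and 47.0 to 50.2 CPM in shControl libraries.

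SOCS proteins act as receptor subunits of a ubiquitin ligase, and the listed partner genes were called in both directions. Of 7 partners, all tested, 3 were higher, 1 lower and 3 did not pass, with a median log2 fold change of -0.0066. The share called was 57.1%, against 32.1% of all tested genes. All 7 lie in the 2 highest quintiles of abundance, where 55.7% and 38.8% of all genes passed. A ring protein gene of the list, RBX1, was at 44.6 ± 0.848 CPM in shRNF11 and 37.7 ± 1.63 CPM in shControl cells (log2 fold change 0.24, edgeR adjusted p = 0.000478). RNF7, another ring protein gene of the list, named after its values were seen, did not pass (log2 fold change -0.09, edgeR adjusted p = 0.249). These values do not tell which ring protein serves the SOCS ligase. CUL5, the scaffold of the SOCS ligase, was 1.13-fold lower at 48.6 ± 1.03 CPM in shRNF11 against 54.9 ± 1.38 CPM in shControl (edgeR adjusted p = 0.00480). The adaptor genes ELOB and ELOC were 1.11-fold and 1.08-fold higher (edgeR adjusted p of 0.00986 and 0.0169), calls that were lost with library totals alone (0.165 and 0.337). Without a single library the highest adjusted p was 0.0602 for ELOB (without shControl replicate 2) and 0.0895 for ELOC (without shControl replicate 3).

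Among the receptors that hold the kinases, the shared chain gp130 rose, and of its partners some passed and some did not. Of 42 receptor genes, 30 had a row and 22 were tested, of which 5 were higher, 3 lower and 14 did not pass, a share called of 36.4% with a median log2 fold change of -0.06. IL6ST, which encodes gp130, had 191, 191 and 206 CPM in shRNF11 and 171, 170 and 170 CPM in shControl libraries. All shRNF11 libraries were higher, and the difference was 1.15-fold (log2 fold change 0.20, SE 0.0335, edgeR adjusted p = 3.17e-06). IL6ST lies in the top quintile of abundance, where 55.7% of all genes passed. Its partner chains LIFR and OSMR did not pass, at 152 ± 9.71 CPM in shRNF11 against 151 ± 1.16 CPM in shControl for LIFR and 258 ± 4.14 CPM in shRNF11 against 252 ± 6.44 CPM in shControl for OSMR. The partners IL6R and IL11RA, named after their values were seen, did not pass either. Their log2 fold changes were -0.12 and -0.23 (edgeR adjusted p of 0.464 and 0.491). IL27RA, another gp130 partner, was higher (log2 fold change 0.26, edgeR adjusted p = 0.000179), the interferon gamma receptor gene IFNGR1 1.29-fold higher at 32.5 ± 0.680 CPM in shRNF11 against 25.1 ± 0.977 CPM in shControl (edgeR adjusted p = 7.48e-06), and IL20RB 1.17-fold lower (edgeR adjusted p = 0.00383).

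The receptor chain that feeds STAT6, IL4R, was at 47.9, 44.2 and 37.8 CPM in shRNF11 libraries and 46.0, 44.8 and 44.8 CPM in shControl libraries. The shRNF11 values reach past the shControl values on both sides, and IL4R did not pass (log2 fold change -0.06, edgeR adjusted p = 0.467). The growth hormone receptor gene GHR, upstream of JAK2 and STAT5B, had 1 read in the shRNF11 libraries together and 0 in the shControl libraries, so its transcript was at the limit of detection in both groups.

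Ligands were scarce, and 2 of the 10 tested were called, both lower. Of 38 ligand genes, 19 had a row and 10 were tested, of which 0 were higher, 2 lower and 8 did not pass. The list was chosen with earlier results of these data known, so its share and median cannot tell whether ligands differ from other genes. The share called was 20%, against 32.1% of all tested genes, and the median log2 fold change was -0.46. All 10 lay below the 2 highest quintiles of abundance, and in the 3 quintiles below those the medians over all genes were -0.16, -0.09 and -0.02 from the lowest up, nearer to 0 than that of the ligands. In these 3 quintiles lower calls outnumbered higher ones over all genes, at 159 against 89, 499 against 170 and 508 against 362 from the lowest up. IL11, a gp130 ligand, had 64, 57 and 39 reads in shRNF11 libraries against 204, 147 and 169 in shControl libraries. The groups were far apart for so low a gene, and IL11 was 3.17-fold lower at 1.41 ± 0.352 CPM in shRNF11 against 4.49 ± 0.725 CPM in shControl (log2 fold change -1.66, SE 0.222, edgeR adjusted p = 3.24e-08). CTF1, a further gp130 ligand, had 1, 4 and 1 reads in shRNF11 and 13, 15 and 18 in shControl libraries (edgeR adjusted p = 0.00413). These reads are too few for a firm fold change, and DESeq2 gave it no adjusted p. Only the shControl libraries carried CTF1 past the filter on low counts, so it could be tested only as a lower gene. Its call is therefore no evidence of direction, although it enters the count and the median of the ligands. IL6 and LIF, named after their values were seen, did not pass, at 6.85 ± 1.06 CPM in shRNF11 against 6.81 ± 0.289 CPM in shControl for IL6 and 15.6 ± 1.14 CPM in shRNF11 against 17.0 ± 0.415 CPM in shControl for LIF.

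Target genes of STAT3 and STAT5 included higher and lower genes, and 2 of the 7 tested STAT6 targets were called, both lower. Of 32 STAT3 targets, 29 had a row and 19 were tested, of which 8 were higher, 6 lower and 5 did not pass, with a median log2 fold change of -0.06. HIF1A, the hypoxia factor, was 1.35-fold higher (edgeR adjusted p = 2.12e-21), the cyclin gene CCND1 1.38-fold higher (1.89e-18), the mitotic and survival gene BIRC5 1.37-fold higher (1.40e-15) and MYC 1.21-fold higher (6.69e-13). The share of STAT3 targets called was 73.7%, against 32.1% of all tested genes. In the most abundant quintile 6 of 7 targets were called, where 55.7% of all genes passed, and below it 8 of 12 were called, where 9.20% to 38.8% passed by quintile. No test of the list was made. This list and the other lists around the members, those of STAT5 and STAT6 targets included, were chosen with earlier results of these data known. Their shares and medians therefore cannot tell whether such genes respond more often than other genes, or more in one direction. Of 15 STAT5 targets, 9 were tested, of which 5 were higher, 3 lower and 1 did not pass (88.9% called), with a median log2 fold change of 0.25, and 5 of the 9 are also in the STAT3 list. ID1, an inhibitor of differentiation factors, was 1.69-fold higher at 114 ± 6.01 CPM in shRNF11 against 67.0 ± 3.88 CPM in shControl (edgeR adjusted p = 6.10e-20), and IGFBP3, a carrier of insulin-like growth factors, was 1.27-fold lower (edgeR adjusted p = 1.25e-15). Of 16 STAT6 targets, 7 were tested, of which 0 were higher, 2 lower and 5 did not pass. The share called was 28.6%, against 32.1% of all tested genes, and the median log2 fold change was -0.16. The 2 lower ones were CISH and SERPINB4, and SERPINB4 had 9, 5 and 3 reads in shRNF11 against 22, 15 and 22 in shControl libraries (edgeR adjusted p = 0.0240). Only the shControl libraries carried SERPINB4 past the filter on low counts, so it could be called only as lower, and its call is no evidence of direction. SERPINB4 lies in the lowest quintile of abundance and CISH in the next one up. Calls over all genes leaned the same way there, with 159 lower and 89 higher in the lowest quintile and 499 lower and 170 higher in the next. SERPINB4 shares most of its sequence with SERPINB3, so its reads are uncertain, and its call was lost without shRNF11 replicate 3 (edgeR adjusted p = 0.117), without shControl replicate 1 (0.0885), without shControl replicate 3 (0.0876) and without shRNF11 replicate 2 (0.0798).

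**Figure D4:**
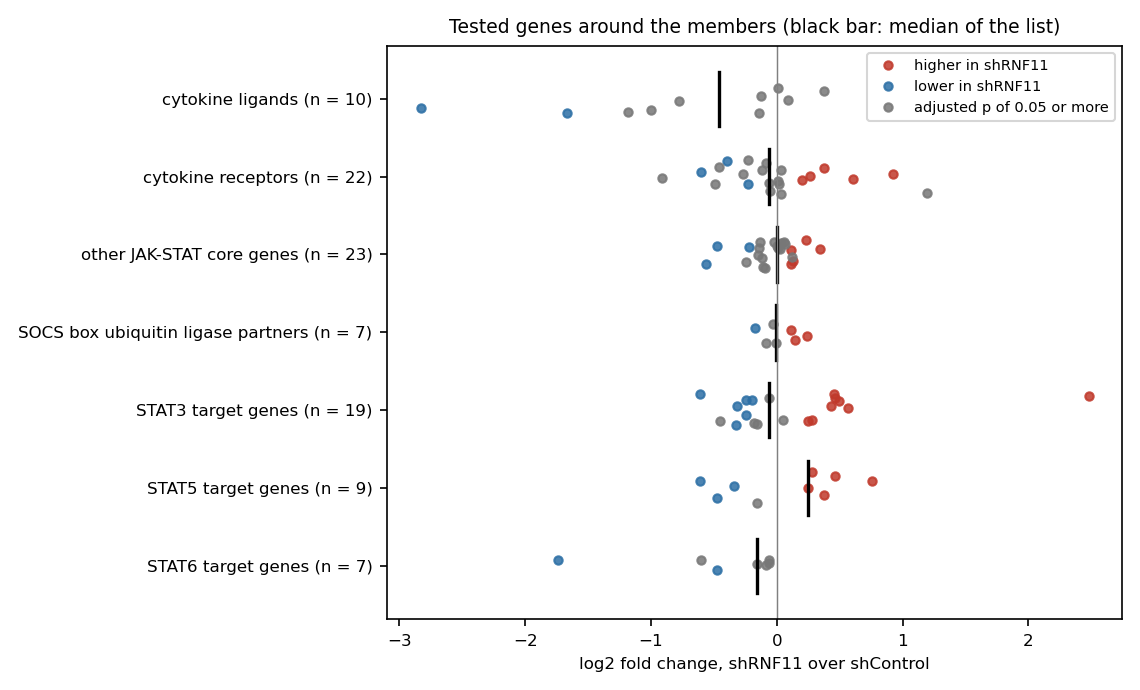
Log2 fold change of shRNF11 over shControl (horizontal axis) for every tested gene of 7 lists around the members (rows; red higher, blue lower, grey an adjusted p of 0.05 or more), with the median of each list as a black bar. Ligands have a median of -0.46 with IL11 at -1.66, STAT3 and STAT5 targets spread to both sides, and no STAT6 target is higher. The ligand CTF1 and the STAT6 target SERPINB4 passed the filter on low counts only through the shControl libraries.

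The table's own KEGG terms place 114 genes in the JAK-STAT pathway, all 10 members among them. Of the other 104, 79 were tested, of which 16 were higher, 14 lower and 49 did not pass. The share called was 38.0%, against 32.1% of all tested genes, and the median log2 fold change was -0.04.

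**Figure D5:**
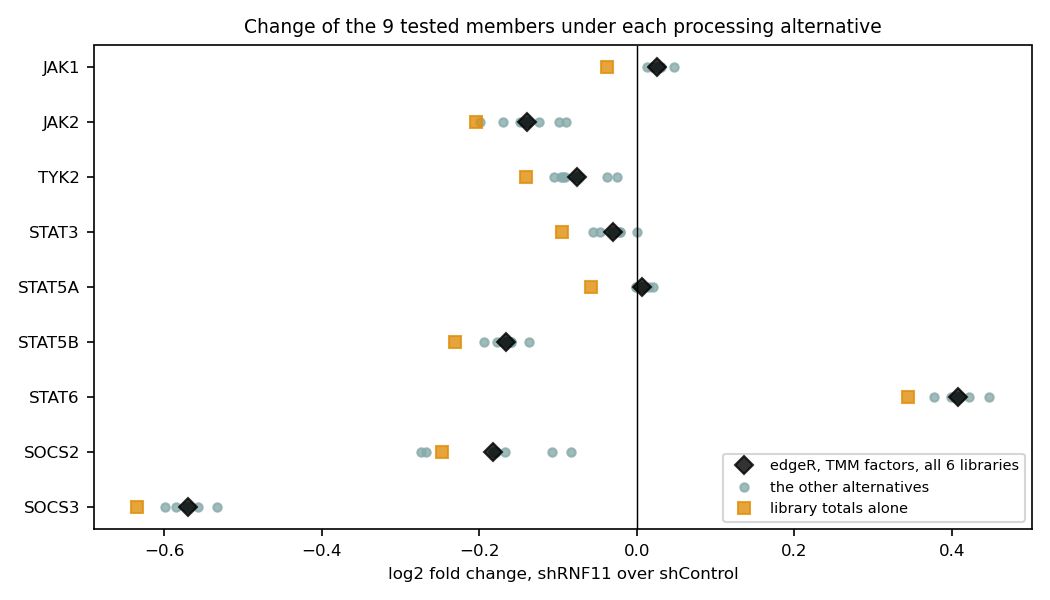
Log2 fold change of shRNF11 over shControl (horizontal axis) for the 9 tested members with the edgeR fit used throughout (black diamonds), with library totals alone (orange squares) and with the 11 remaining alternatives (grey circles: other factors, filter, tests, the replicate number as a block and 6 left-out libraries). SOCS3 stays between -0.63 and -0.53 and STAT6 between 0.34 and 0.45, and library totals alone place all 9 members lower than the fit used throughout.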

How the data were processed

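The authors deposited raw, unscaled read counts for each gene in 6 libraries, 3 per group. The submitters' processing notes name fastp, HISAT2 and HTSeq with no version or role. Genome build, annotation and strand setting were not stated. Per the labels' protocols, total RNA was extracted with TRIzol. Groups and replicate numbers come from the sample titles. Rows that name no gene numbered 0.

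Genes were kept by filterByExpr (minimum count 10) and scaled with TMM factors. The quasi-likelihood test of edgeR (version 4.0.16, under R 4.3.3) had group as its sole term, with Benjamini-Hochberg adjustment over all 13489 tested genes and a threshold of 0.05. SE was computed from the log2 fold change and F. The median SE was 0.0711. The fit was tested on simulated data.

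The chi-square per gene between replicates was 3.79 to 5.85 within groups, so replicates differed by more than sampling noise. Named genes are the 10 members, RNF11, a set of partner genes and up to 4 called genes with the smallest p of each list. A gene that the rule names is not reported here. Genes outside this rule are said to be chosen after their values were seen. The members and lists were chosen with earlier results of these data known. Alternatives were RLE factors, library totals, no filter, DESeq2 1.42.0, limma-voom (limma 3.58.1), a replicate block, each library left out, and STAT5A and STAT5B summed.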

Additional observations from a re-analysis of the deposited data

How the results depend on the processing

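The calls on SOCS3, STAT6 and STAT5B kept their direction and passed in all 12 alternatives run on every member. The summed STAT5 reads were also called lower, but most of them are STAT5B reads, so the sum is no separate check of STAT5B. Log2 fold changes ran from -0.63 to -0.53 for SOCS3 and from 0.34 to 0.45 for STAT6. For STAT5B they ran from -0.23 to -0.11, where -0.11 is the value of the summed pair. With library totals alone 5 members passed in place of 3, STAT3 and TYK2 being added, and across all genes 1335 were higher and 3255 lower in place of 2348 and 1988. STAT5A, at 0.01, took the value of the pair, -0.11, when the reads of STAT5A and STAT5B were summed, since the sum holds both genes. Leaving out 1 library at a time gave 3478 to 3978 changed genes in place of 4336, 3 changed members each time, and 32 to 34 changed genes in the 7 lists around them in place of 40. The other core genes were less stable, with 8 changed in the fit used and 5 in DESeq2, 5 in limma-voom and 4 to 5 without a single library. Changed STAT6 targets numbered 2 in the fit used, 4 with library totals alone and 0 to 2 without a single library. With the replicate number as a block 4399 genes and 3 members changed. The labels do not say whether the numbers pair the libraries. Deviations of same-numbered libraries from their group means correlated at -0.0159 to -0.0059 over genes, and no library correlated best with its own number. Deviations from a mean of 3 libraries are not independent of each other, so this check cannot exclude pairing. Depth limits SOCS1, GHR and CTF1, and intervals of JAK2 and SOCS2 are wide for the same reason.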

Other observations

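Within the STAT3 target list, genes outside the naming rule, chosen after their values were seen, split by direction. The acute-phase gene SAA1 had 92, 147 and 172 reads in shRNF11 libraries against 34, 14 and 27 in shControl libraries, and it was 5.58-fold higher (log2 fold change 2.48, SE 0.296, edgeR adjusted p = 1.88e-09). SAA1 is nearly identical to SAA2, which had 5 reads in shRNF11 and 1 in shControl, so the assignment of these reads is uncertain. A2M of the same list went the other way and did not pass (log2 fold change -0.45, edgeR adjusted p = 0.576). SERPINA3, LBP, ORM1, FGA, FGB, FGG, HAMP and LRG1, also of the list, had too few reads to be tested. The rise of SAA1 therefore does not stand for acute-phase genes as a set. CEBPB and CEBPD, transcription factors of the acute-phase response, were at 56.1 ± 1.47 CPM in shRNF11 against 39.9 ± 1.61 CPM in shControl for CEBPB and at 34.1 ± 3.73 CPM in shRNF11 against 23.1 ± 0.186 CPM in shControl for CEBPD (SD, n = 3 each; edgeR adjusted p of 6.97e-11 and 5.18e-09). The kinase gene PIM1, a target of both STAT3 and STAT5, had 566, 482 and 554 reads in shRNF11 libraries and 833, 821 and 842 in shControl libraries, a 1.52-fold lower level (edgeR adjusted p = 8.68e-08). VEGFA and TIMP1 were lower, with log2 fold changes of -0.33 and -0.24 (edgeR adjusted p of 7.81e-11 and 9.88e-09). The 6 calls, on SAA1, CEBPB, CEBPD, PIM1, VEGFA and TIMP1, held in all 12 alternatives.

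IRF9, a partner of STAT2 in interferon signalling, also chosen after its values were seen, had 260, 295 and 297 reads in shRNF11 libraries against 198, 232 and 258 in shControl libraries. Its CPM values did not overlap between the groups and its adjusted p was 0.0466 in edgeR, a call that was lost in 8 of 12 alternatives. Over all 12 alternatives, run in edgeR, DESeq2 or limma-voom, its adjusted p-values ran from 0.0305 to 0.234.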
